A study of Mus musculus with 2 samples.

Results

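The 9 genes described here encode the insulin-like growth factor (IGF) axis of cultured vascular smooth muscle cells (VSMCs): the ligand Igf1, the receptors Igf1r and Igf2r, and the binding proteins Igfbp2, Igfbp3, Igfbp4, Igfbp5, Igfbp6 and Igfbp7. They were chosen by symbol, with earlier results of these data known, and all 9 were found once among the 31053 genes of the count tables. Primary VSMCs were isolated from aortae of wildtype mice of a pure C57BL6/N background and profiled by single-cell RNA sequencing (scRNA-seq) after 5 days in culture, and no treatment or other genotype was part of the experiment. The 2 libraries are biological replicates 1 and 2, each of pooled aortae, and they are the only replicates of all values (n = 2). The age and sex of the mice behind each library were not given in the sources used here.

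IGF-1 acts through the IGF-1 receptor, a tyrosine kinase that signals to growth and survival through insulin receptor substrates, PI3 kinase and AKT. The IGF-2 receptor, also known as the mannose-6-phosphate receptor, takes up IGF-2 and lysosomal enzymes and has no kinase domain. Most IGF in tissue is held by secreted binding proteins, which prolong its half-life and either withhold it from the receptor or present it, and proteases such as PAPP-A and HTRA1 release it. IGFBP7 binds IGFs only weakly and is also a matrix-associated protein of vessels. In the arterial wall, IGF-1 is known as a survival and growth factor of VSMCs, and binding proteins are secreted by VSMCs and by endothelial cells (ECs).

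Igfbp2 and Igfbp5 are neighbours in the genome, and Igfbp4 lies on another chromosome. In cells poor in Myh11 RNA, compared with cells rich in it, Igfbp2 was lower and Igfbp5 higher (adjusted p = 0.0149 and 0.150 with edgeR). The neighbours were not opposite throughout. Among cells poor in Myh11, both were lower in cycling and in Il1rn-positive cells than in the other cells, without a call. In the GENCODE M21 annotation of GRCm38, Igfbp2 (ENSMUSG00000039323) is on the plus strand of chromosome 1 from 72824503 to 72852474, and Igfbp5 (ENSMUSG00000026185) is on the minus strand from 72857932 to 72874884. The 2 genes thus end towards each other, with 5457 bases between them. Igfbp4 (ENSMUSG00000017493) is on the plus strand of chromosome 11 from 99041244 to 99054392. Since the results turn on these 3 genes, the 250 bases before the RefSeq start of each are shown 5′ to 3′ on the strand of the gene (GRCm38.p6). They are chr1:72824230-72824479 (plus strand, the first of 2 starts) for Igfbp2, chr11:99040994-99041243 (plus strand) for Igfbp4 and chr1:72874866-72875115 (minus strand) for Igfbp5. Capitals mark matches to the GC box GGGCGG, the E-box CACGTG and the TATA box TATAAA on either strand.
Igfbp2: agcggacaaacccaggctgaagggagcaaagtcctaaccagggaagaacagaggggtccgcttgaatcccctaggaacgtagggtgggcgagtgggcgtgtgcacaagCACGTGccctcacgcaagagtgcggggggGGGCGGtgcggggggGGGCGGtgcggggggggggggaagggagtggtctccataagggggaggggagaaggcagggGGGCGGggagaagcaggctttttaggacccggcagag
Igfbp4: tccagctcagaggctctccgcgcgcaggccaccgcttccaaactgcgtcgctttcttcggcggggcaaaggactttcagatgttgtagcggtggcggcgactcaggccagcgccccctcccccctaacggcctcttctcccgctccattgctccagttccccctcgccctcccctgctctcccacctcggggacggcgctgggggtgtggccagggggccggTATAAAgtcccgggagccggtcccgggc
Igfbp5: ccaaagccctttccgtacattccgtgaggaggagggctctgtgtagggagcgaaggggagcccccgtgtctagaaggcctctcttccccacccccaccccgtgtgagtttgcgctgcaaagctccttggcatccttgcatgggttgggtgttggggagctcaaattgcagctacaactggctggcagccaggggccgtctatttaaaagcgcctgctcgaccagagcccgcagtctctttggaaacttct
The Igfbp2 sequence held 3 copies of GGGCGG and 1 of CACGTG, which do not overlap. The Igfbp4 sequence held TATAAA at position -28 from the start, and the Igfbp5 sequence held none of the letters searched. GGGCGG was found in 32.74% of all 32851 mouse promoter sequences of this length, TATAAA in 12.37% and CACGTG in 6.021%. Among the 10 promoters of the 9 genes, GGGCGG was also found in those of Igf1r, Igf2r and Igfbp7, CACGTG also in that of Igf2r and TATAAA also in that of Igfbp6. The E-box CACCTG, in 17.22% of all promoters, was found in those of Igf2r and Igfbp3. The CArG box, the motif bound by serum response factor before many contractile genes, was in 0 of the 10 and in 1.467% of all promoters, which says only that the motif is not within these windows.

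In the 10x Genomics method mRNA is captured at its 3′ end and marked by cell barcode and by unique molecular identifier (UMI), and each UMI is counted once. The counts summed to 127949633 and 132561822 UMIs, and 4866 cells of replicate 1 and 6824 cells of replicate 2 passed the filters (at least 300 genes, at least 3000 UMIs, under 20% mitochondrial UMIs). The libraries shared 9 barcodes of kept cells, beside 4.89 that chance would give among all listed barcodes. Cells were divided by marker UMIs into 5 classes without overlap. Myh11-high cells (295 and 521 in replicates 1 and 2) had at least 5 UMIs of Myh11, the smooth muscle myosin heavy chain. Myh11-high cells were not selected by Il1rn, and 9.15% and 0.576% of them held a UMI of it. Myh11-low cells (1981 and 3654) had at most 1 Myh11 UMI and no Il1rn UMI, so that of these 2 classes only this one was cut by Il1rn. Neither class held cycling cells or ECs. The next classes also had at most 1 Myh11 UMI. They were cycling cells (1060 and 1408), with at least 2 UMIs in at least 2 of Mki67, Top2a, Birc5, Cdk1, Ccnb1 and Cenpf and no Il1rn UMI, and non-cycling Il1rn-positive cells (537 and 205), with at least 1 UMI of the interleukin-1 receptor antagonist gene. ECs (102 and 141) had at least 2 UMIs in at least 2 of Pecam1, Cdh5, Cldn5 and Gja4. These classes are ranges of marker counts rather than cell types, and 337 and 442 non-endothelial cells with 2 to 4 Myh11 UMIs lay between the limits. The contractile markers that were not used for the classes (Acta2, Tagln, Cnn1, Smtn, Lmod1, Myocd, Myl9) summed to 26036 and 28358 CPM (UMIs scaled to a common total per class and library) in Myh11-high cells and to 6801 and 3726 CPM in Myh11-low cells. All 6 endothelial markers outside the rule (Tie1, Kdr, Emcn, Egfl7, Esam, Ecscr) reached 5 CPM in ECs, where they summed to 2440 and 2823 CPM. The markers of modulated VSMCs (Lum, Pdgfra, S100a4) summed to 2177 and 2328 CPM in Myh11-high and to 3173 and 4073 CPM in Myh11-low cells, and adventitial fibroblast markers (Pi16, Clec3b, Col15a1, Dpt) to at most 47.6 CPM in any class. The median UMIs per cell were 23754 and 18462 in Myh11-high cells, 19817 and 14559.5 in Myh11-low cells and 14629 and 10250 in ECs.

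**Figure D1:**
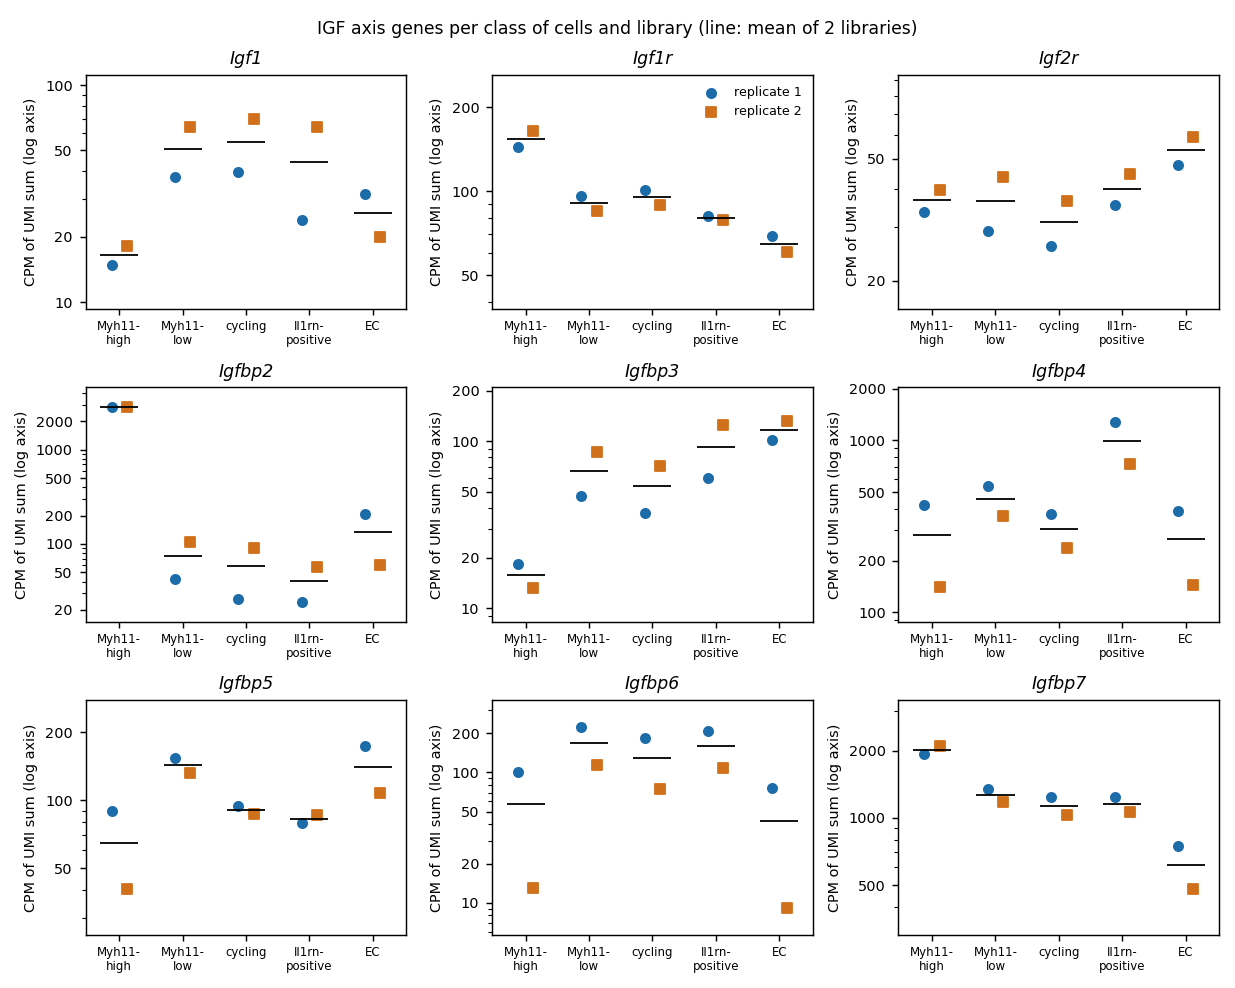
CPM of the summed UMIs (log axis) of the 9 genes in the 5 classes of cells. Each point is 1 library, circles for replicate 1 and squares for replicate 2, and lines are means of the 2 libraries. Igfbp2 stood at 2850 and 2846 CPM in Myh11-high cells and at or below 205 CPM in every other class, whereas Igfbp4 was highest in Il1rn-positive cells.

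The first comparison asked how the IGF axis differed between cells with many and cells with few Myh11 UMIs. Igfbp2 and Igf1r were lower in Myh11-low than in Myh11-high cells, and 0 of the 9 genes were higher at an adjusted p under 0.05 (edgeR quasi-likelihood test on UMI sums per library and class, Benjamini-Hochberg adjustment over 13187 genes). The 2 genes lower compare with 3.12% of all genes tested that were lower, 1.41% that were higher and 4.53% in either direction. The p-values measure the spread between these 2 libraries, estimated for each gene over all 5 classes in 1 fit. That spread is thus not of the 2 compared classes alone. At an unadjusted p under 0.05, 6 of the 9 genes differed, beside 2500 of the 13187 genes tested. Both sums of a library come from 1 culture, and with the library as a block, 3 of the 9 genes were lower (Igfbp2, Igf1r and Igfbp7) and 5 were higher (Igf1, Igfbp3, Igfbp4, Igfbp5 and Igfbp6), beside 13.1% and 11.6% of all genes (24.6% together). DESeq2 called Igfbp2, Igf1r and Igfbp7 lower and Igf1 and Igfbp3 higher, beside 1214 genes called in either direction. The median log2 fold change of the 9 genes was 0.60 and that of all genes tested 0.01.

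Igf1, the ligand, was a low-level transcript. It was found at 14.9 and 18.2 CPM in Myh11-high cells of replicates 1 and 2, and at 37.8 and 64.0 CPM in Myh11-low cells. Both libraries were higher in Myh11-low cells and the values of the classes did not overlap. The log2 fold change was 1.51 ± 0.47 (SE), with an adjusted p of 0.123 without and of 0.00512 with the library as a block (edgeR). A UMI was found in 12.9% and 12.7% of Myh11-high cells and in 28.7% and 36.6% of Myh11-low cells.

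Igf1r, the signalling receptor, ran the other way. Its level was 144 and 164 CPM in Myh11-high cells and 96.2 and 84.7 CPM in Myh11-low cells, without overlap. The log2 fold change was -0.86 ± 0.14 (adjusted p = 0.0166 with edgeR). The call was lost, at adjusted p-values up to 0.146, when Myh11-high replicate 2, Myh11-low replicate 1 or Myh11-low replicate 2 was left out. Igf2r was found at 33.5 and 39.7 CPM in Myh11-high cells and at 29.1 and 43.6 CPM in Myh11-low cells, and these values overlapped. Its log2 fold change was -0.11 ± 0.23 (adjusted p = 0.862 with edgeR).

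Igfbp2 had the largest difference of the 9 genes. Its level was 2850 and 2846 CPM in Myh11-high cells, and 42.9 and 105 CPM in Myh11-low cells. The 2 libraries were close in the first class, with a mean of 2848 ± 2.41 CPM (SD, n = 2), and replicate 2 was the higher one in the second. The log2 fold change was -5.38 ± 0.87, or 41.6-fold lower (adjusted p = 0.0149 with edgeR). As for Igf1r, leaving out Myh11-high replicate 2 or either Myh11-low sum raised the adjusted p above the threshold, up to 0.0965, with log2 fold changes between -6.12 and -4.89. With every cell thinned to 3000 UMIs, an alternative chosen after seeing the data, the adjusted p was 0.00371 for Igfbp2 and 0.0139 for Igf1r (edgeR).

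The share of cells with an Igfbp2 UMI was 65.8% (95% exact binomial interval 60.0 to 71.2%) and 88.9% (85.8 to 91.4%) in Myh11-high cells. In Myh11-low cells it was 18.3% and 21.7%, and thinning every cell to 3000 UMIs gave 51.8% and 80.4% in Myh11-high cells and 6.18% and 11.3% in Myh11-low cells. Free RNA, estimated from empty droplets, was put at a UMI in about 18.5% and 19.6% of Myh11-low cells. This estimate is too high for Igfbp2 in at least some classes, since ECs had shares of 7.84% and 8.51% where it gave 16.4% and 15.2%, and cycling cells 19.3% and 19.7% where it gave 24.0% and 24.2%. In CPM it came to 9.82 and 13.8, below the 42.9 and 105 CPM of Myh11-low cells. The UMIs in Myh11-low cells were concentrated in few cells, as 91.1% and 91.2% of them came from the tenth of cells with the most.

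Igfbp7, whose product is deposited in vessel matrix, was abundant in every VSMC class. It was found at 1937 and 2099 CPM in Myh11-high cells and at 1340 and 1182 CPM in Myh11-low cells, without overlap. The log2 fold change was -0.78 ± 0.22, with an adjusted p of 0.0947 without and 0.00318 with the block (edgeR). A UMI was found in 100% of Myh11-high cells of both libraries and in 97.7% and 97.8% of Myh11-low cells.

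The other 4 binding proteins were higher in Myh11-low cells in both libraries, by amounts that depended on the library. Igfbp3, the main carrier of IGF in serum, was found at 18.3 and 13.3 CPM in Myh11-high cells and at 46.7 and 86.1 CPM in Myh11-low cells. Its log2 fold change was 1.97 ± 0.45 (adjusted p = 0.0510 with edgeR, and 0.00140 with the block). Igfbp5, a binding protein that attaches to extracellular matrix, was found at 89.2 and 40.5 CPM in Myh11-high cells and at 154 and 132 CPM in Myh11-low cells. The classes did not overlap for either gene, and the log2 fold change of Igfbp5 was 1.05 ± 0.35 (adjusted p = 0.150 with edgeR, and 0.00770 with the block). An Igfbp5 UMI was found in 28.1% and 16.1% of Myh11-high cells and in 40.4% and 28.5% of Myh11-low cells. In Myh11-high cells, 14.7% and 28.5% of the Igfbp5 UMIs came from 1 cell, beside 2.11% and 1.51% in Myh11-low cells.

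In Myh11-high cells, Igfbp4 and Igfbp6 had the widest gaps between the libraries among the 9 genes, at 2.98-fold and 7.81-fold. Igfbp4, which mostly withholds IGF from its receptor, was found at 420 and 141 CPM in Myh11-high cells and at 542 and 365 CPM in Myh11-low cells. Myh11-high cells of replicate 1 were thus above Myh11-low cells of replicate 2, and the classes overlapped. The fitted log2 fold change was 0.60 ± 0.62 (adjusted p = 0.691 with edgeR), and 0.76 ± 0.21 with the block (adjusted p = 0.0296). Within the libraries the differences were 0.37 and 1.37 on the scale of log2(CPM + 1). These levels depended on the cut by Il1rn and cycling. Without it, Igfbp4 was at 382 and 127 CPM in non-endothelial cells with at least 5 Myh11 UMIs and at 631 and 343 CPM in those with at most 1. For Igfbp5 the same cells held 74.9 and 43.1 CPM and 115 and 114 CPM. Igfbp6, which prefers IGF-2 over IGF-1, was found at 101 and 12.9 CPM in Myh11-high cells and at 224 and 115 CPM in Myh11-low cells. These values did not overlap, although replicate 2 was much the lower in Myh11-high cells. Its log2 fold change was 1.49 ± 1.05 (adjusted p = 0.513 with edgeR) and 1.86 ± 0.41 with the block (adjusted p = 0.0110).

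The contrast of Igfbp2 with Igfbp4 and Igfbp5 was followed as the log2 ratio of their UMIs within 1 library, which serves to compare classes and not the genes themselves. The ratio of Igfbp2 to Igfbp4 was 2.76 and 4.34 in Myh11-high cells, and -3.66 and -1.80 in Myh11-low cells. The difference between the classes was -6.42 and -6.14, or -6.28 ± 0.20 (SD, n = 2), although the ratios themselves differed between the libraries. The ratio of Igfbp2 to Igfbp5 was 5.00 and 6.13 in Myh11-high cells and -1.84 and -0.34 in Myh11-low cells, a difference of -6.65 ± 0.26. Most of both differences lay in Igfbp2, which differed by -6.02 and -4.75 on the scale of log2(CPM + 1). On that scale Igfbp4 differed by 0.37 and 1.37 and Igfbp5 by 0.78 and 1.68. In ECs the ratio to Igfbp4 was -0.92 and -1.27, and in Il1rn-positive cells it was -5.73 and -3.66. The EC ratio rested on the 4 and 3 ECs with at least 5 Myh11 UMIs, as the other ECs held 11 and 9 UMIs of Igfbp2 beside 666 and 234 of Igfbp4. Without these ECs and without cells of high UMI count, the difference of the fitted log2 fold changes of Igfbp2 and Igfbp4 in ECs moved from -1.36 to -6.01.

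The level of Igfbp2 was graded over the number of Myh11 UMIs, while those of Igfbp4 and Igfbp5 did not move in 1 direction over all bins. In non-endothelial cells of replicate 1, cycling cells included, Igfbp2 was found at 26.5 CPM in cells without a Myh11 UMI, 88.2 CPM with 1 UMI, 233 CPM with 2 to 4, 741 CPM with 5 to 9, 2140 CPM with 10 to 19 and 5048 CPM with 20 or more. In replicate 2 the same bins held 72.4, 382, 1190, 1718, 2927 and 3079 CPM. Igfbp2 was thus higher in every next bin of both libraries, and 191-fold and 42.5-fold higher in the last bin than in the first. Cells between the limits, with 2 to 4 Myh11 UMIs, differed between the libraries, at 233 and 1190 CPM of Igfbp2 and at 673 and 161 CPM of Igfbp4. Igfbp4 was 613 CPM in the first and 147 CPM in the last bin of replicate 1, with 767 CPM at 1 UMI and still 484 CPM at 10 to 19. In replicate 2 it was 345 CPM in the first bin and 161 CPM at 2 to 4 UMIs, and then 122, 129 and 139 CPM. Igfbp5 was higher with 1 than with 0 Myh11 UMIs in both libraries, at 131 against 113 CPM and at 164 against 110 CPM, and was 35.3 and 42.9 CPM in the last bin. Igf1r was 1.88-fold and 2.08-fold higher in the last than in the first bin, and Igfbp7 1.75-fold and 2.07-fold. Depth moved with the bins, since the median UMIs per cell were 21959 and 15606 in the first and 31002 and 23509 in the last bin, and its part in these levels was not tested.

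**Figure D2:**
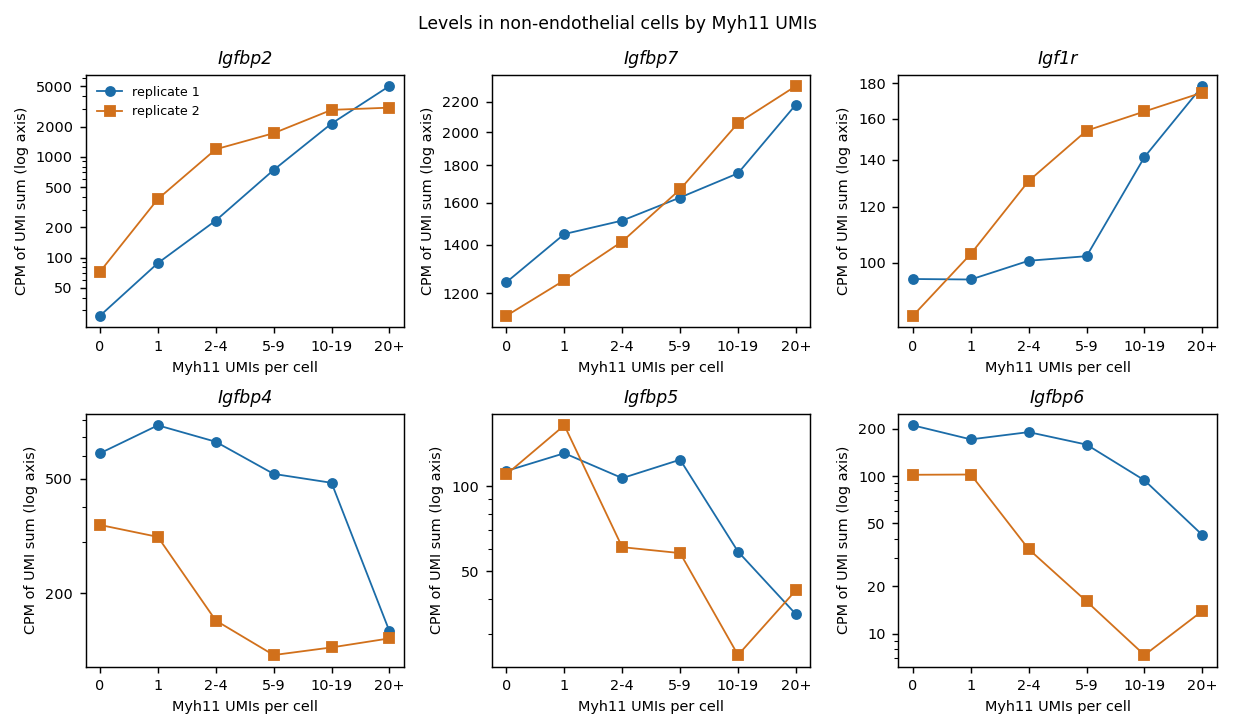
CPM of the summed UMIs (log axis) of 6 genes in non-endothelial cells, by the number of Myh11 UMIs in the cell, with 1 line per library. Igfbp2, Igfbp7 and Igf1r were higher and Igfbp4, Igfbp5 and Igfbp6 lower in cells with 20 or more Myh11 UMIs than in cells with none, in both libraries.

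Myh11-high cells did not share 1 level of Igfbp2. In replicate 1, 101 of them (34.2%) had no Igfbp2 UMI, 61 had 1 to 9 and 133 (45.1%) had 10 or more, up to 914. In replicate 2 the numbers were 58 (11.1%), 75 and 388 (74.5%), with up to 632 UMIs in a cell. These limits were set after the values were seen, and the levels in the subsets are a description. Igfbp4 was found at 644 and 343 CPM in the Myh11-high cells without Igfbp2, and at 177 and 107 CPM in those with 10 or more UMIs. Igfbp5 was found at 164 and 130 CPM against 24.3 and 32.4 CPM, and Igfbp6 at 149 and 71.7 CPM against 41.7 and 3.64 CPM. All 3 were lower in the subset rich in Igfbp2 in both libraries. Lum and Pdgfra, 2 of the 3 markers of modulated VSMCs, followed the same order, and S100a4 was not read in these subsets. Lum was at 147 and 120 CPM against 11.0 and 11.2 CPM, and Pdgfra at 71.0 and 39.7 CPM against 22.0 and 9.15 CPM. Myh11 itself differed little in replicate 2 (589 against 641 CPM) but more in replicate 1 (453 against 824 CPM). The contractile genes Acta2 (12014 and 14999 against 18330 and 16957 CPM) and Tagln (4750 and 7947 against 10227 and 9762 CPM) were higher in the subset rich in Igfbp2. Lmod1 was at 382 and 254 CPM against 394 and 318 CPM. Seen from Igfbp4, the libraries differed: Igfbp2 was 4883 CPM in Myh11-high cells without and 1768 CPM in those with an Igfbp4 UMI in replicate 1, but 2883 and 2792 CPM in replicate 2.

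**Figure D3:**
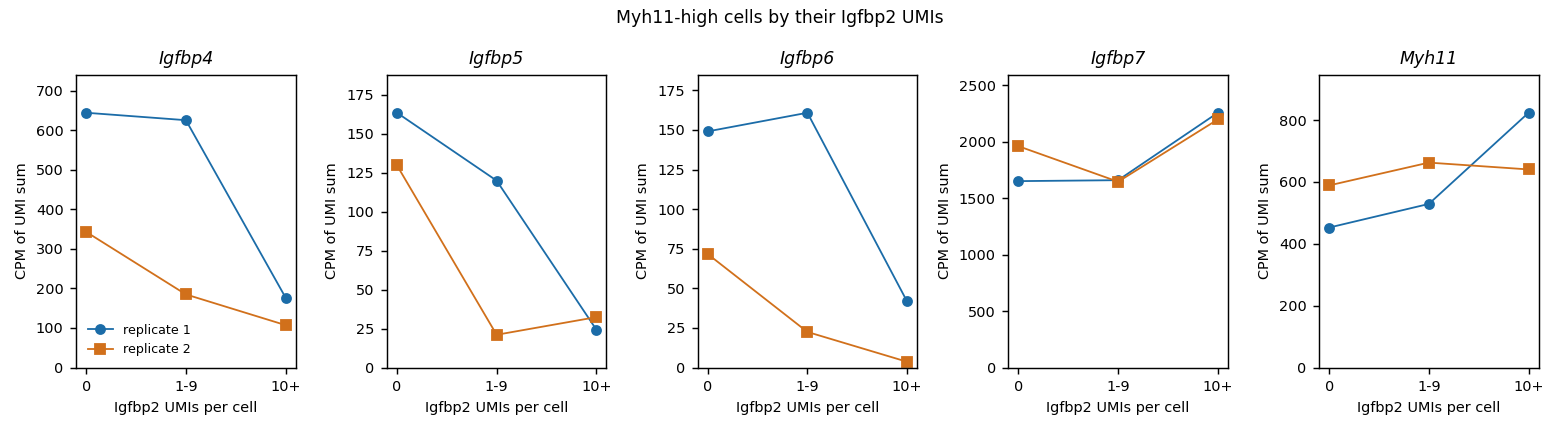
CPM of the summed UMIs of 5 genes in Myh11-high cells without Igfbp2 UMIs, with 1 to 9 and with 10 or more, with 1 line per library and axes from 0. Igfbp4, Igfbp5 and Igfbp6 were lower in cells with 10 or more Igfbp2 UMIs than in cells with none, and Igfbp7 was higher.

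UMIs of 2 of these genes in 1 cell can come from free RNA, which was put at 21.2% and 23.6% of Myh11-high cells for Igfbp2 and at 39.6% and 22.2% for Igfbp4, and its part was not tested. In Myh11-high cells, Igfbp2 and Igfbp4 were found together in 36.3% and 33.6% of cells, where independence within 10 groups of cells of like depth would give 41.6% and 34.1%. For Igfbp2 and Igfbp5 the shares were 13.9% and 13.4%, beside 18.5% and 14.5%. Igfbp4 and Igfbp5 were found together in 23.4% and 7.68% of Myh11-high cells, beside 18.6% and 6.64%. In this class the observed shares were below those of independence for both pairs with Igfbp2 and above for the pair without it in each library, by a small margin in replicate 2. Myh11-low cells did not share this order, with observed over independent shares of 1.07 and 1.06 for Igfbp2 and Igfbp4, 1.05 and 0.876 for Igfbp2 and Igfbp5, and 0.995 and 0.991 for Igfbp4 and Igfbp5.

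The second comparison asked whether the axis differed in cycling cells. Among Myh11-low cells, 0 of the 9 genes passed the threshold between cycling and non-cycling cells (edgeR), beside 5.54% of all genes (5.29% higher, 0.243% lower). At an unadjusted p under 0.05, 0 of the 9 genes differed, beside 1965 of the 13187 genes tested. With the library as a block the number called was also 0, beside 20% of all genes (12.9% higher, 7.06% lower). DESeq2 called 0 of the 9. With all sums kept, the alternatives, DESeq2 included, called 334 to 2631 of all genes. The sizes were small for most: Igf1 had a log2 fold change of 0.08 ± 0.45, Igf1r of 0.05 ± 0.14 and Igfbp7 of -0.17 ± 0.22. Igfbp4 was found at 375 and 236 CPM in cycling cells, beside 542 and 365 CPM in the other Myh11-low cells, and Igfbp5 at 93.9 and 87.2 CPM beside 154 and 132 CPM. The values of Igfbp5 did not overlap, and its adjusted p was 0.442 without and 0.0549 with the block (edgeR). The 178 and 358 cycling cells with at least 5 Myh11 UMIs, which belong to none of the classes, held Igfbp2 at 2331 and 1868 CPM.

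The third comparison concerned the class of Il1rn-positive cells, which made up 537 of 4866 and 205 of 6824 kept cells. Of these, 356 and 96 had at least 2 Il1rn UMIs. Among all non-endothelial cells, cycling and Myh11-high cells included, 1026 and 318 held an Il1rn UMI, as did 7.84% and 0.709% of ECs. In this comparison 0 of the 9 genes and 0% of all genes passed the threshold with edgeR. Of the 9, 1 gene, Igfbp5, had an unadjusted p under 0.05, beside 452 of all genes. With the block, 0.243% of all genes (0.121% higher and 0.121% lower) and 0 of the 9 passed, and DESeq2 called 16 genes but 0 of the 9. Igfbp4 was found at 1273 and 726 CPM in Il1rn-positive cells and at 542 and 365 CPM in the other Myh11-low cells. Both values in Il1rn-positive cells were above both of the other class, by 1.23 and 0.99 on the scale of log2(CPM + 1). The fitted log2 fold change was 1.11 ± 0.63 (adjusted p = 1 with edgeR, and 0.0979 with the block). A UMI of Igfbp4 was found in 94.0% and 82.0% of Il1rn-positive cells, beside 71.1% and 60.0% of the other class, and after thinning in 78.5% and 63.6%, beside 48.0% and 39.8%. Free RNA was put at 36.0% and 17.6% of Il1rn-positive cells and at 34.9% and 18.4% of the other class, without thinning.

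Igfbp5 was lower rather than higher in the Il1rn-positive cells, at 79.3 and 86.0 CPM against 154 and 132 CPM (log2 fold change -0.83 ± 0.35, adjusted p = 1 with edgeR). Igfbp4 and Igfbp5, which were both higher in Myh11-low cells, thus stood apart in this class, without a test of that difference. Macrophage markers (Ptprc, Cd68, Adgre1, Csf1r, C1qa, Cd74) summed to 19.8 and 26.8 CPM in Il1rn-positive cells and to 6.53 and 7.92 CPM in the other class. In Il1rn-positive cells 2 and 3 of the 6 reached 5 CPM, and in the other class 0 of the 6 in either library. Ptprc, the pan-leukocyte marker, was at 0.587 and 1.27 CPM in Il1rn-positive cells and Cd74 at 0. Nearly all of the sums in Il1rn-positive cells thus came from the other markers of the list, which together were higher there. Whether macrophages were among these cells was not tested. Without the cells that held UMIs of at least 2 of the 6 macrophage markers, the log2 fold change of Igfbp4 was 1.12 ± 0.62. This left 533 of 537 and 202 of 205 Il1rn-positive cells, so that the value could hardly change. Cells with 1 such marker were kept.

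The last comparison set ECs against the mean of Myh11-high and Myh11-low cells. Igfbp3 was higher in ECs, beside 16.2% of all genes, and Igf1r and Igfbp7 were lower, beside 13.4% (edgeR, 29.6% in either direction). With the library as a block, Igf2r was also higher and Igfbp2, Igfbp4 and Igfbp6 were also lower, which made 2 and 5 of the 9 genes beside 21.5% and 21.2% of all genes (42.7% together). Calls were thus common among all genes in this comparison, at 29.6% without and 42.7% with the block.

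Igfbp3 was found at 102 and 131 CPM in ECs, above its level in every VSMC class of the same library, with a log2 fold change of 1.66 ± 0.37 (adjusted p = 0.0120 with edgeR, and 0.0971 without the ECs of replicate 2). In replicate 2, Il1rn-positive cells were close below ECs, at 125 CPM, and 18.3% of the Igfbp3 UMIs of ECs came from 1 cell. An Igfbp3 UMI was found in 43.1% and 37.6% of ECs, beside 13.2% and 7.49% of the deeper Myh11-high cells. It was found in 397 of 1981 and 975 of 3654 Myh11-low cells and in 27.6% and 38.5% of Il1rn-positive cells. The share of replicate 2 was thus not highest in ECs. Igf1r was lowest in ECs, at 68.8 and 60.5 CPM, with a log2 fold change of -1.06 ± 0.14 (adjusted p = 0.000926 with edgeR). Igfbp7 was found at 745 and 481 CPM, with a log2 fold change of -1.58 ± 0.21 (adjusted p = 0.00102 with edgeR). An Igfbp7 UMI was found in 57.8% and 61.0% of ECs, and free RNA was put at 47.2% and 36.3%. The median was 1 Igfbp7 UMI per EC in both libraries, and 59.6% and 56.9% of these UMIs came from the tenth of ECs with the most. Igf2r was found at 47.9 and 58.8 CPM in ECs, with a log2 fold change of 0.35 ± 0.21 (adjusted p = 0.248 with edgeR, and 0.0257 with the block). Igfbp4 was found at 389 and 143 CPM in ECs, near the 420 and 141 CPM of Myh11-high cells. Only the Myh11-low part of the mean, at 542 and 365 CPM, was above ECs within both libraries for this gene. The values overlapped, as ECs of replicate 1 were above Myh11-low cells of replicate 2. Igfbp6 was found at 75.9 and 9.14 CPM in ECs, below the 101 and 12.9 CPM of Myh11-high cells and the 224 and 115 CPM of Myh11-low cells.

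The Igfbp2 level of the EC class came from a handful of cells. It was 205 and 59.4 CPM, but 387 of the 403 UMIs in replicate 1 were in 1 cell. The 4 and 3 ECs with at least 5 Myh11 UMIs held 392 of the 403 and 95 of the 104 Igfbp2 UMIs, and their median UMIs per cell were 42600 and 38396, beside 14285.5 and 10166.5 in the other ECs. In the 98 and 138 other ECs, Igfbp2 was found at 6.20 and 5.50 CPM and in 6.12% and 6.52% of cells. The log2 fold change in ECs was -1.98 ± 0.71 (adjusted p = 0.0692 with edgeR, and 0.0337 with the block), and -6.68 ± 0.83 (adjusted p = 0.000676) without these cells and without cells of high UMI count in any class.

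**Figure D4:**
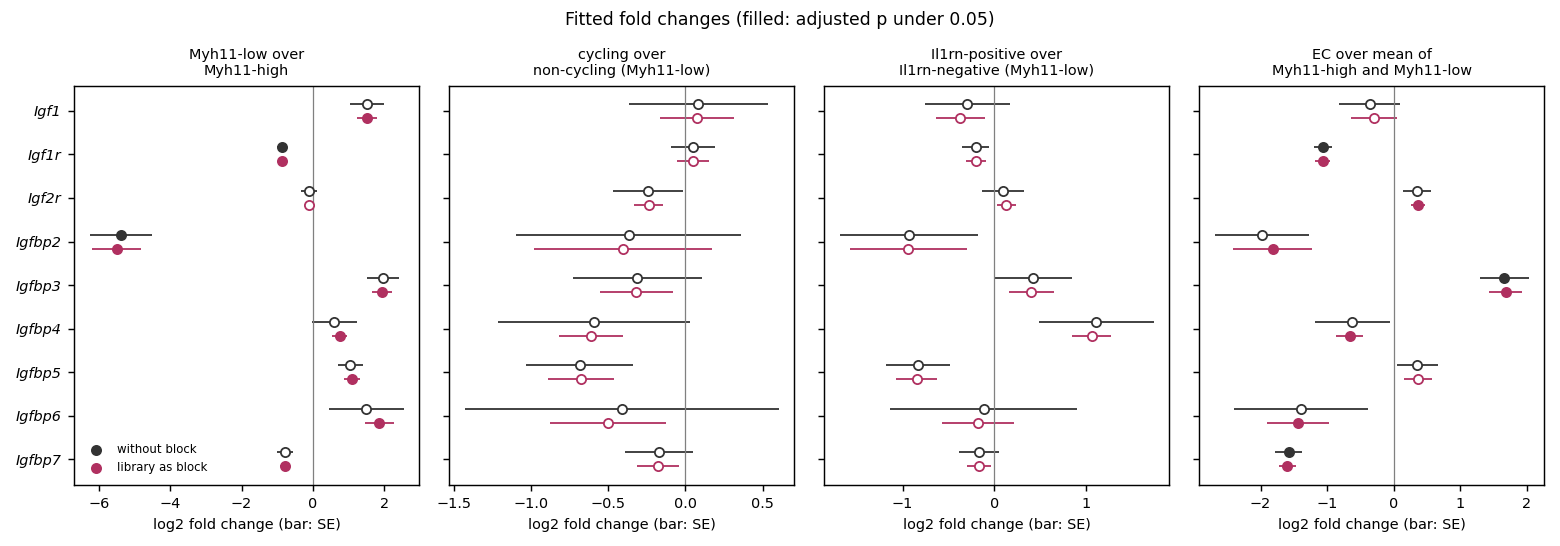
Fitted log2 fold changes of the 9 genes in the 4 comparisons, without (dark) and with (red) the library as a block. Bars are SE, and filled points had an adjusted p under 0.05 with edgeR. Igfbp2 and Igf1r were the genes called by both fits for Myh11-low over Myh11-high, and no point is filled for the cycling and Il1rn-positive cells.

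The rest of the pathway was read from a list of 34 genes, of which 30 were tested. Igf2, Igfbp1, Igfbpl1 and Igfals were too low to be tested. In Myh11-low cells, 0 of the 30 were higher and 1 was lower than in Myh11-high cells (edgeR, 6 at an unadjusted p under 0.05). Of all genes, 1.41% were higher and 3.12% lower, and 2500 of the 13187 tested had an unadjusted p under 0.05. The pathway gene called lower was Htra1, a serine protease that cleaves binding proteins. It was found at 149 and 226 CPM in Myh11-high cells and at 41.8 and 43.6 CPM in Myh11-low cells, with a log2 fold change of -2.23 ± 0.20 (adjusted p = 0.00164 with edgeR). With the block, 8 of the 30 were also higher, beside 11.6% of all genes. They included Pappa, which encodes PAPP-A and cleaves IGFBP4, and the PAPP-A inhibitors Stc1 and Stc2. Others were the endocytic receptor Lrp1, the adaptors Irs1 and Grb10, and Pik3r1 of the PI3 kinase pathway. Stc1 was the largest of these, at 72.8 and 11.6 CPM in Myh11-high and 239 and 96.0 CPM in Myh11-low cells (adjusted p = 0.319 without and 0.000858 with the block, edgeR).

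In cycling cells 0 of the 30 were called (edgeR, 1 at an unadjusted p under 0.05), beside 5.54% of all genes. An unadjusted p under 0.05 was found for 1965 of the 13187 genes tested. With the block Insr and Grb14 were lower, beside 7.06% of all genes. In Il1rn-positive cells 0 were called by either fit of edgeR, beside 0% and 0.243% of all genes. Of the 30, 1 had an unadjusted p under 0.05, beside 452 of all genes. In ECs, Foxo1 was higher, at 97.3 and 69.7 CPM (log2 fold change 1.45 ± 0.23, adjusted p = 0.00231 with edgeR), beside 16.2% of all genes. The 9 genes that were lower, beside 13.4% of all genes, included Pappa, Htra1, Lrp1, Grb14, Pik3r1, Pdpk1, Akt2 and Foxo3. Pappa was found at 34.1 and 15.4 CPM in ECs, with a log2 fold change of -2.02 ± 0.63 (adjusted p = 0.0448 with edgeR). With the block, 2 were higher, which added Insr, and 14 were lower, which added Stc1, Tmem219, Irs1, Irs2 and Tsc2. Of all genes, 21.5% were higher and 21.2% lower with the block.

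Over the 10 sums of UMIs and the 8023 genes of a mean above 10 CPM, the genes whose log2(CPM + 1) was most like that of Igfbp2 were Abra (Pearson r = 0.987), Wwp2 (0.984) and 2310061I04Rik (0.962). Those most like Igfbp4 were Arrdc4 (0.989), Rgcc (0.984) and Clcn4 (0.980), and those most like Igfbp5 were Calml4 (0.910), Selenon (0.876) and St3gal1 (0.854). The 10 points share 2 libraries and 5 classes, and the values are a description.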

How the data were processed

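The authors deposited raw UMI counts for every gene in every listed barcode, empty droplets included. The submitters' processing notes name Cell Ranger 3.0.2 and mm10, while the file header of replicate 2 names 3.1.0. Gene identifiers were matched to GENCODE M21 (31011 of 31053), and promoter sequences and their starts were taken from RefSeq (GRCm38.p6) for all 9 genes. Opposite-strand neighbours overlap Igf1, Igf2r and Igfbp7.

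Cells had at least 300 genes, 3000 UMIs and under 20% mitochondrial UMIs, and doublets were kept. The members, classes and gene lists were chosen with earlier results of these data known. The genes named are the 9 members, listed pathway genes past the threshold in any comparison (some are not reported here), and the 3 genes most like Igfbp2, Igfbp4 and Igfbp5. Levels are CPM of summed UMIs, and shares carry exact binomial intervals (95%), which cover counting error only. The sums of 5 classes in 2 libraries were tested in 1 fit with edgeR 4.0.16 (quasi-likelihood test, TMM, filterByExpr, Benjamini-Hochberg over 13187 genes, threshold 0.05), and no p-value was made from cells. Each SE was derived from the fold change and its F statistic. Free RNA was taken from barcodes with 1 to 100 UMIs, at a share of 3.91% and 4.13% from Pecam1, Cdh5 and Cldn5 in Myh11-low cells. This estimate was added after the data were seen. The 3 genes are part of the EC rule, so that cells rich in them were already left out of that class. This can lower the share, which was not tested. DESeq2 1.42.0, other scalings, filters and class cuts were alternatives. The fit was tested on simulated data.

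The replicate numbers pair the sums, because classes of 1 library were taken from 1 culture. The deviations of same-numbered sums from their class means correlated across genes at 0.347 to 0.881 in all 10 pairs of classes. A second fit had the library as a block and is quoted beside calls that it alters.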

Additional observations from a re-analysis of the deposited data

How the results depend on the processing

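For Myh11-low over Myh11-high, 597 genes were called, but 3247 with the library as a block, 1214 with DESeq2, and 106 to 849 with 1 sum left out. For cycling cells 730 were called, but 2631 with the block, 334 after subtraction of free RNA at the planned share, and 426 to 470 with 1 sum left out. For Il1rn-positive cells 0 were called, but 32 with the block, 16 with DESeq2 and 1 with Il1rn-positive cells from 2 UMIs, and 0 to 0 with 1 sum left out. For ECs 3906 were called, but 2247 with cells thinned to 3000 UMIs and 2184 to 3754 with 1 sum left out. The cause was not tested.

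The planned share of free RNA (52.6% and 32.4%) came from the endothelial markers outside the rule in Myh11-high and Myh11-low cells. Ecscr was at 28.6 and 7.32 CPM in Myh11-high and at 20.6 and 8.29 CPM in Myh11-low cells. Egfl7 was at 4.78 and 2.02 and at 6.82 and 6.19 CPM, and Esam at 11.8 and 10.4 and at 0.259 and 0.891 CPM. Whether VSMCs expressed these genes, which would make the share too high, was not tested. With the planned share, Igfbp2 in ECs reversed to a log2 fold change of 2.92, and its call between the Myh11 classes was lost (-18.9, adjusted p = 0.0829 with edgeR). It left no estimate for Igfbp2 in cycling and Il1rn-positive cells. Igf1 in cycling cells reversed to -0.048 with thinned cells.

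With 1 sum left out, where the lone sum is assumed to vary like the others, these log2 fold changes reversed: Igf2r in Myh11-low cells (-0.40 to 0.12), in cycling cells Igf1 (-0.34 to 0.48), Igf1r (-0.068 to 0.18), Igf2r (-0.48 to 0.048), Igfbp2 (-1.46 to 0.38), Igfbp3 (-0.81 to 0.16) and Igfbp6 (-1.24 to 0.19), in Il1rn-positive cells Igf1 (-1.09 to 0.26), Igf2r (-0.14 to 0.38), Igfbp3 (-0.13 to 0.89) and Igfbp6 (-0.74 to 0.48), and Igfbp5 in ECs (-0.060 to 0.68). None of these was past the threshold. In all, 23 of 36 log2 fold changes of the 9 genes kept their sign under every alternative run. The block changed no call of the 9 genes other than those given with the results. With 2 libraries, small differences were not detectable.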
